A study of Homo sapiens with 14 samples.

Results

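RNA sequencing of KYSE510, a human esophageal squamous cell carcinoma line, compared siLAT1-2, 1 of the study's small interfering RNAs (siRNAs) against LAT1, with the negative control siNC. The comparison took 4 of the 14 samples of the series: the 2 libraries labelled siLAT1-2 and the 2 siNC libraries deposited in the same expression table. Both groups were grown in RPMI-1640 with serum, were transfected with lipofectamine RNAiMAX and were harvested 48 h later, so that the carrier and the presence of an siRNA were common to them. The second LAT1 siRNA of that table, siLAT1-3, also had 2 libraries, which entered the model for the spread between replicates. The series also silenced EZH2 with 2 siRNAs and mapped EZH2 by CUT&Tag, and those samples were not used here. With 1 siRNA considered, loss of SLC7A5 and any action of the siRNA's own sequence cannot be told apart. No group without siRNA was used, so changes made by siLAT1-2 and changes made by siNC itself cannot be told apart either.

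LAT1 is the light chain of a heterodimeric transporter of the system L family and is encoded by SLC7A5. It joins a glycoprotein heavy chain, CD98hc, encoded by SLC3A2, which brings it to the plasma membrane, and it exchanges intracellular glutamine for large neutral amino acids such as leucine, methionine, phenylalanine and tryptophan. Leucine is sensed by the kinase complex mTORC1, uncharged transfer RNA activates the kinase GCN2 and through it the transcription factor ATF4, and methionine is the precursor of S-adenosylmethionine, the methyl donor used by histone methyltransferases such as EZH2. Squamous carcinomas of the esophagus and of the head and neck are among the tumours in which LAT1 is abundant.

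Values were taken as FPKM, the authors' read or fragment counts per gene scaled by gene length and library depth. Of 63677 genes listed, the 11678 whose 6 libraries averaged 1 FPKM or more were tested on log2(FPKM + 1), a scale that understates the change of low genes. A gene is called at a limma adjusted p under 0.05. Depth, estimated from the steps between low values of short RNA genes, was 16560000 and 13380000 reads or fragments in the siNC libraries and 14160000 and 13040000 in the siLAT1-2 libraries, and replicates of a group correlated at r = 0.9947 (siNC) and 0.9932 (siLAT1-2) across genes. The label of the line was met by its markers: all 11 squamous epithelial markers stood at a mean of 1 FPKM or more, led by KRT5 at 468 FPKM, and they summed to 926 and 913 FPKM in siNC and to 814 and 806 FPKM in siLAT1-2. Of the 11 fibroblast, 15 immune and blood, 8 endothelial and 7 glandular markers, 1, 0, 1 and 0 reached that level, the highest being COL1A1 at 2.00 FPKM. Among the markers at 0 in all 4 libraries were MS4A1, CD68, HBB, PECAM1, KDR, TIE1 and TFF3.

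SLC7A5, the siRNA's target, fell strongly in both siLAT1-2 libraries. It was listed at 407.18 and 413.39 FPKM in the siNC libraries and at 86.25 and 80.36 FPKM in the siLAT1-2 libraries, 20.3% of siNC, with no overlap between the groups (log2 change -2.29 ± 0.0367, SE, limma adjusted p = 1.77e-06). SLC3A2, the heavy chain, fell with it, from 127.74 and 133.3 FPKM to 53.31 and 53.07 FPKM, 40.8% of siNC (log2 -1.28 ± 0.0306, limma adjusted p = 3.53e-06). SLC7A5 has closely similar pseudogene copies, and how reads shared with them were counted is not given in the sources used here. The other system L carriers were low in these cells and were not called. SLC7A8, which encodes LAT2 and pairs with the same heavy chain, stood at 1.67 and 1.4 FPKM in siNC and 2.16 and 1.78 FPKM in siLAT1-2 (log2 0.23, 95% interval -0.05 to 0.51, limma adjusted p = 0.185). SLC43A2, which encodes LAT4, stood at 2.9 and 2.79 FPKM in siNC against 3.15 and 3.08 FPKM in siLAT1-2, an order kept in all such pairs (limma adjusted p = 0.281), and SLC43A1 was below the filter.

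**Figure D1:**
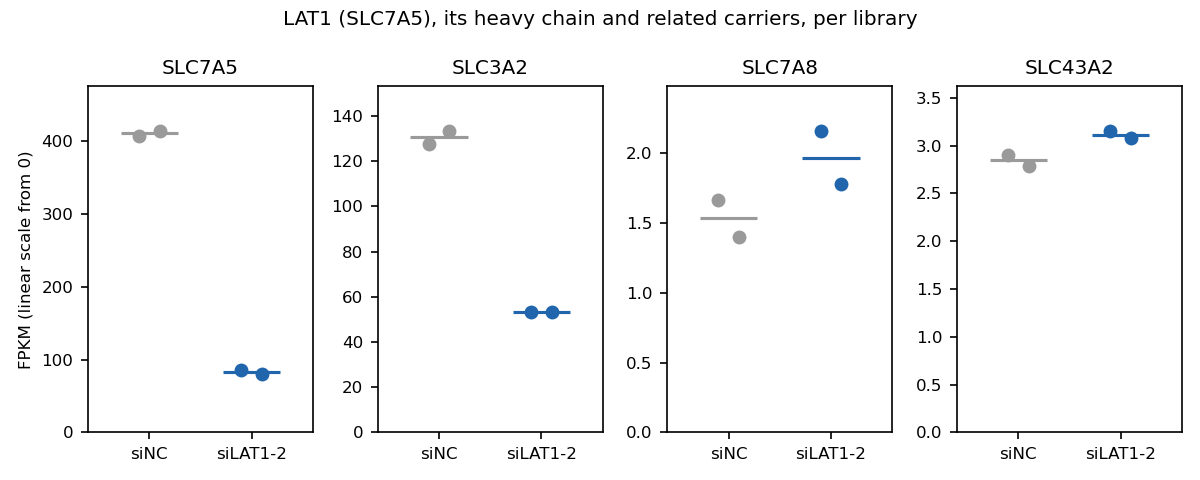
FPKM of SLC7A5, SLC3A2, SLC7A8 and SLC43A2 (y axes, linear from 0, a scale per gene) in the siNC and siLAT1-2 libraries (x axis), with 1 point per library and a line at the mean of the 2 libraries. The siLAT1-2 points of SLC7A5 (86.25 and 80.36 FPKM) and SLC3A2 (53.31 and 53.07 FPKM) lie far below both siNC points, whereas SLC7A8 and SLC43A2 stay between 1.40 and 3.15 FPKM.

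With the target counted, 3796 genes were called, 32.5% of those tested: 2172 were higher with siLAT1-2 (18.6%) and 1624 were lower (13.9%). Most of these changes were small. The median absolute change of the called genes was 0.30 on the log2 scale, 865 of them moved by less than 0.2, and 745 moved by at least 0.5 (408 higher, 337 lower). Only 99 called genes moved by at least 1, 52 of them higher (0.445% of the genes tested) and 47 lower (0.402%). The median over all genes tested was 0.016. Quantile normalization called 1920 genes higher and 1804 lower, so that 51.6% of calls were higher, against 57.2% without it. The libraries of the groups did not overlap in 68.7% of the genes tested, nor in any of the 3796 called genes, so that a lack of overlap was common and is given here only as a description. The count of calls depended on the libraries: it was 2748 and 2782 without the first or the second siLAT1-2 library, and 2382 and 2364 without the first or the second siNC library. The labels do not tell whether replicate libraries stem from separate cultures. The p-values therefore cover only how these libraries vary among themselves, and that variation may be technical. With 2 libraries on each side an exact permutation test could reach no p smaller than 0.333, and the calls rest on the spread pooled across genes.

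**Figure D2:**
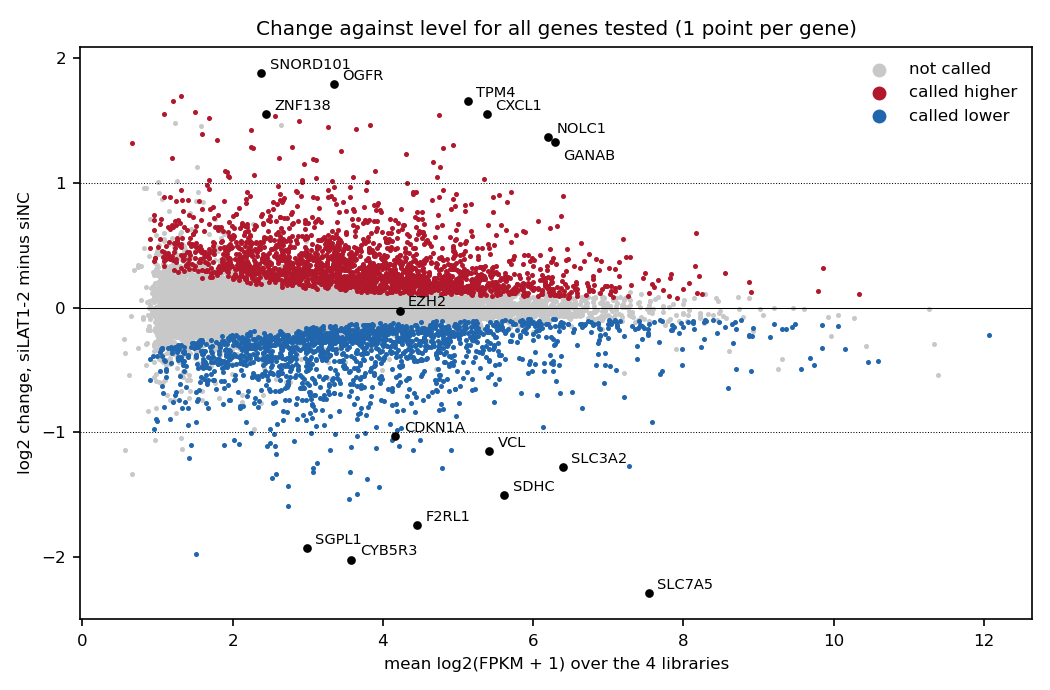
Log2 change of siLAT1-2 minus siNC (y axis) against the mean log2(FPKM + 1) of the 4 libraries (x axis), with 1 point for each of the 11678 genes tested. Called genes are red (2172 higher) or blue (1624 lower), the others grey, black points are named genes, and dotted lines mark a change of 1. SLC7A5, at a log2 change of -2.29, is the lowest point, and EZH2 lies near 0.

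SLC7A5 headed the falls. The 15 lowest changes were taken among called genes of at least moderate level (log2 values averaging 2 or more over the 6 libraries). The choice also required groups that do not overlap. These 15 lay between 20.3% and 36.9% of the siNC level. CYB5R3, the NADH-cytochrome b5 reductase of the endoplasmic reticulum and the outer mitochondrial membrane, fell from 23.2 and 22.99 FPKM to 5.5 and 4.44 FPKM (log2 -2.02 ± 0.0797, limma adjusted p = 1.56e-05). SGPL1, the lyase that breaks down sphingosine-1-phosphate, fell from 14.18 and 14.84 FPKM to 3.06 and 3.09 FPKM (log2 -1.93 ± 0.0453). F2RL1, which encodes the protease-activated receptor PAR2 of epithelia, fell from 39.01 and 39.33 FPKM to 11.45 and 10.57 FPKM (log2 -1.74 ± 0.0477). These genes thus came down nearly as far as the target, although from much lower levels.

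The other falls of this size came from several compartments. SDHC, a membrane anchor subunit of succinate dehydrogenase, fell from 80.48 and 82.71 to 28.04 and 28.26 FPKM (log2 -1.50), the highest control level among the 15 after SLC7A5. POLR3G, a subunit of RNA polymerase III, fell from 19.15 and 18.8 to 5.62 and 6.16 FPKM (log2 -1.54). TNRC6A, the GW182 protein that links Argonaute to messenger RNA decay, fell from 20.3 and 19.85 to 6.49 and 6.45 FPKM (log2 -1.50). The antiproliferative gene TOB1 (log2 -1.44), the p53 ubiquitin ligase MDM2 (-1.43), the cyclase-associated actin regulator CAP2 (-1.37), the inositol polyphosphate kinase IPMK (-1.34), the carboxypeptidase CPA4 (-1.32), REEP3 (-1.37), DPY19L1 (-1.32) and the non-coding transcript ZDHHC12-DT (-1.59) completed the set. All 15 kept their call and direction under the 11 alternatives in which they were tested.

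The 15 highest changes were of similar size and were led by a small nucleolar RNA gene whose replicates disagreed. SNORD101 stood at 0.82 and 3.05 FPKM in siNC and 9.64 and 8.4 FPKM in siLAT1-2 (log2 1.88 ± 0.419, limma adjusted p = 0.0147). It is a short gene within the ribosomal protein gene RPS12, so reads of the host cannot be told apart from its own, and its call was lost without the first siLAT1-2 library (limma adjusted p = 0.0663) and without the first siNC library (0.0648). The remaining 14 were called under every alternative in which they were tested. OGFR, a receptor of the opioid growth factor, increased from 4.6 and 4.37 to 18.66 and 17.39 FPKM (log2 1.79 ± 0.0521, limma adjusted p = 5.9e-06). TPM4, a tropomyosin of the actin cytoskeleton, rose from 19.32 and 18.22 to 61.32 and 61.35 FPKM (log2 1.66 ± 0.0361). The chemokine gene CXCL1 rose from 23.99 and 22.97 to 72.63 and 68.87 FPKM (log2 1.55 ± 0.0384). For each of these 3 the siLAT1-2 libraries stood far above both siNC libraries and close to each other.

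Zinc finger genes made up 5 of the 15 highest. The level that this set had to reach was averaged over all 6 libraries. SNORD101, ZNF138 and ZNF267 lay below it in siNC and passed only through their higher levels with the LAT1 siRNAs. ZNF138 rose from 2.15 and 2.22 to 8.04 and 8.67 FPKM, ZNF845 from 3.56 and 3.21 to 11.15 and 11.58 FPKM and ZNF267 from 1.94 and 1.87 to 6.56 and 7.02 FPKM. ZNF664 (log2 1.54) and ZNF761 (1.45) started from higher levels. Many genes of this family are near-identical copies, and how the authors' counting divided reads between copies is not given. Among the well expressed genes at this end, NOLC1, a nucleolar phosphoprotein of ribosome biogenesis, rose from 43.89 and 45.75 to 116.03 and 118.5 FPKM (log2 1.37). GANAB, the glucosidase subunit that trims glycoproteins in the endoplasmic reticulum, rose from 47.92 and 49.0 to 123.94 and 122.77 FPKM (log2 1.33). The dynein adaptor BICD2 (1.46), the kinetochore protein ZW10 (1.43), the G-protein regulator RGS19 (1.53) and the stress-granule protein G3BP2 (1.30) were the others.

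**Figure D3:**
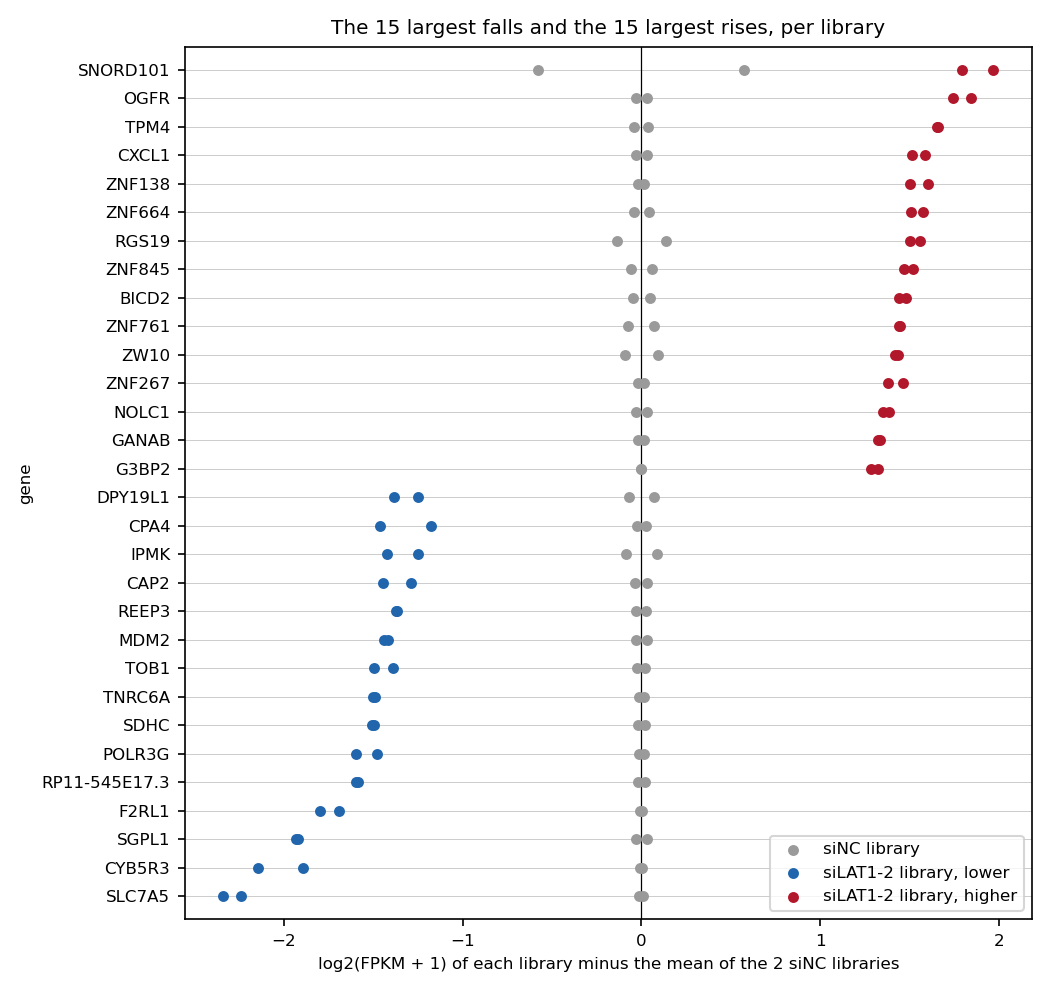
The 15 lowest and 15 highest changes by the naming rule (y axis), each library plotted as its log2(FPKM + 1) minus the mean of the 2 siNC libraries (x axis): grey points are siNC libraries, blue and red points siLAT1-2 libraries. Replicates lie close together in nearly every gene, and SNORD101, at 0.82 and 3.05 FPKM in siNC, has the widest siNC spread.

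The largest changes were also set against siLAT1-3 in the same fit, in which 25.5% of the genes tested were called between the siRNAs. The genes were picked for their change with siLAT1-2, which by itself tilts this comparison toward larger changes with that siRNA. All 15 of the lowest were called lower with siLAT1-2 than with siLAT1-3, by 0.36 (SLC7A5) to 2.00 (CYB5R3) on the log2 scale. With siLAT1-3, CYB5R3 stood at 22.25 and 23.19 FPKM, SGPL1 at 14.77 and 15.3 FPKM and SDHC at 80.5 and 80.7 FPKM, levels close to those of siNC. Others stood between siNC and siLAT1-2, among them TNRC6A at 13.82 and 12.68 FPKM, REEP3 at 14.13 and 12.71 FPKM and MDM2 at 7.75 and 7.34 FPKM. SLC7A5 itself stood at 106.63 and 107.08 FPKM. Of the 15 highest, 7 were higher and 2 lower with siLAT1-2 than with siLAT1-3 and 6 were not called between them, with differences from -0.41 to 0.77. OGFR stood at 17.29 and 18.24 FPKM and TPM4 at 59.27 and 57.75 FPKM with siLAT1-3. Since the siNC libraries are common to both siRNAs, and helped to choose these genes, likeness between the siRNAs is given as values only.

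**Figure D4:**
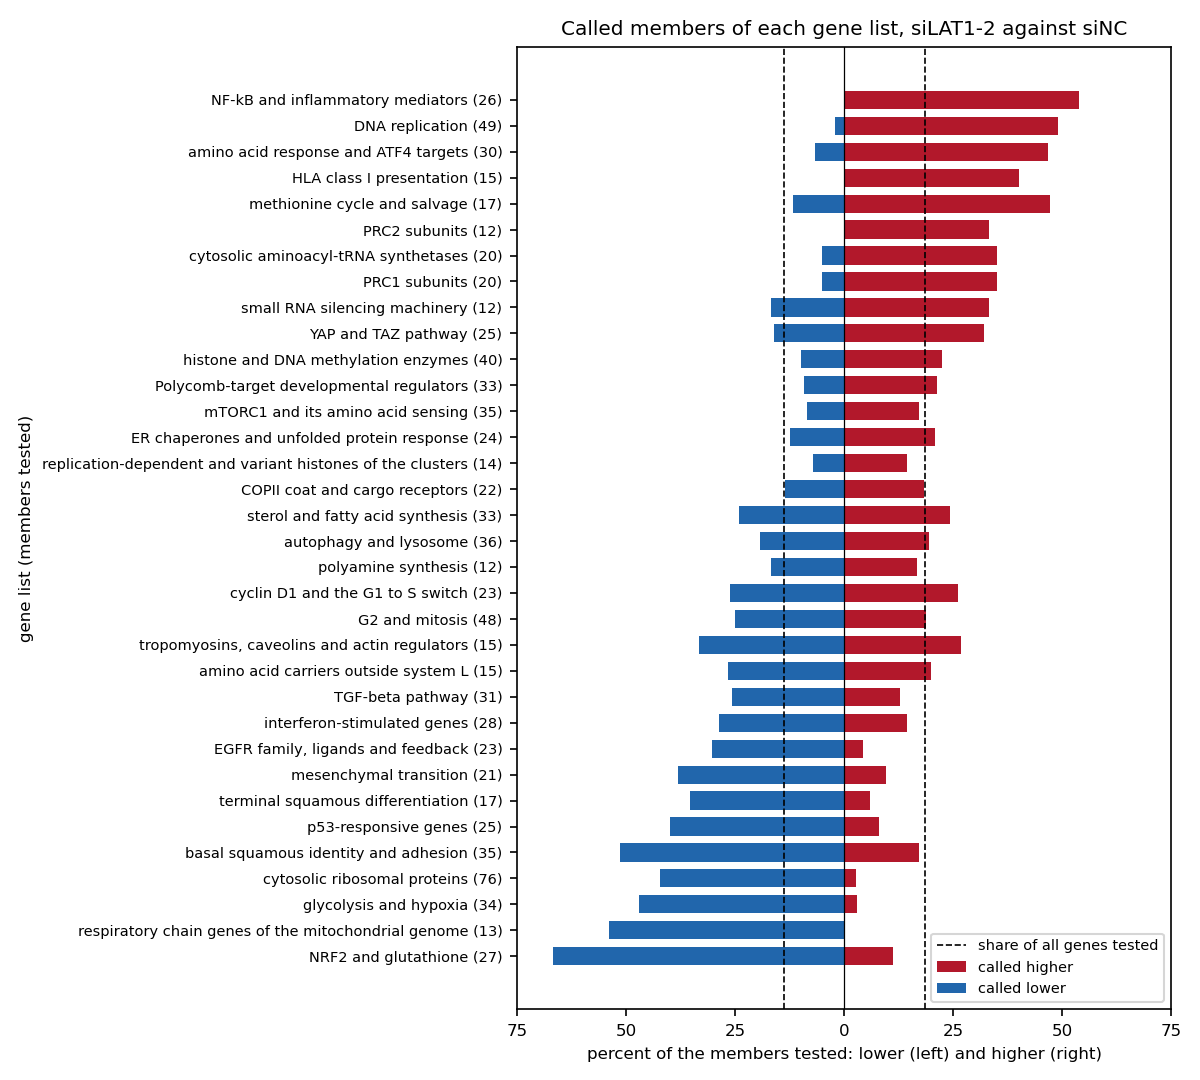
Percent of the tested members of each gene list (y axis, members tested in brackets, lists with at least 10) that were called higher (red, right) or lower (blue, left) with siLAT1-2. Dashed lines mark the shares over all genes tested, 18.6% higher and 13.9% lower, and NF-kB mediators (53.8% higher) and NRF2 genes (66.7% lower) are at the ends.

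The genes listed for the amino acid response rose more often than they fell. ATF4 drives this programme when amino acids are short, and its products include asparagine and serine synthesis enzymes, transporters and negative regulators. Amino acid carriers were counted in other lists, where SLC3A2, SLC7A11 and SLC38A2 fell beside the target SLC7A5, and SLC7A1 rose. The counts below therefore leave out the transporters. Of 35 genes listed 30 were tested: 14 were higher (46.7%, against 18.6% of all genes), 2 were lower and 14 were not called, with a median log2 change of 0.159. The number higher was 8 without the first siNC library and 9 without the second. TRIB3, a pseudokinase that restrains AKT and ATF4, rose most, from 9.94 and 10.95 FPKM to 19.27 and 19.59 FPKM (log2 0.84 ± 0.0495, limma adjusted p = 6.12e-05). PCK2, the mitochondrial PEP carboxykinase, rose from 4.03 and 5.03 to 8.3 and 7.32 FPKM (log2 0.68). GPT2, the mitochondrial alanine transaminase, rose from 11.78 and 12.03 to 18.28 and 19.11 FPKM (log2 0.61). The leucine sensor SESN2 rose from 5.44 and 5.42 to 7.67 and 7.14 FPKM (log2 0.39), and the ATF4 partner CEBPG from 14.41 and 14.47 to 17.89 and 17.75 FPKM (log2 0.29).

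The classical reporters of this response moved little. ASNS, asparagine synthetase, rose from 17.65 and 18.51 to 21.45 and 22.03 FPKM (log2 0.25 ± 0.037, limma adjusted p = 0.00265), and PHGDH, the first enzyme of serine synthesis, from 21.8 and 22.2 to 25.33 and 24.79 FPKM (log2 0.18). ATF4 itself stood at 117.17 and 111.93 FPKM in siNC and 107.24 and 107.32 FPKM in siLAT1-2, which did not pass (log2 -0.09, 95% interval -0.17 to -0.02, limma adjusted p = 0.0546). DDIT3, which encodes the stress factor CHOP, stood at 3.67 and 3.59 against 4.06 and 5.14 FPKM (limma adjusted p = 0.0785), and CHAC1, a glutathione-degrading enzyme, at 2.99 and 3.66 against 2.57 and 2.76 FPKM (limma adjusted p = 0.107). CEBPB (log2 -0.23) and STC2 (-0.19) were the members called lower. The calls of CBS, PPP1R15A, JDP2, ATF3, PSAT1 and PYCR1 (log2 0.17 to 0.30) were all lost without the first siNC library (limma adjusted p = 0.0507 to 0.123), and ATF3 lost its call with any of the 4 libraries left out (0.0501 to 0.0821). CTH (log2 0.42), an enzyme of cysteine synthesis, kept its call throughout. VEGFA (log2 0.15), PSPH (0.13), ATF5 (0.07), NUPR1 (0.05), ALDH18A1 (0.05), SHMT2 (0.03), XPOT (0.03), EIF4EBP1 (-0.03), MTHFD2 (-0.02), GADD45A (0.00) and DDIT4 (-0.21) were not called.

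ATF4 binds a C/EBP-ATF composite element, and its core TGATGNAA was searched on both strands in the 250 bases before the start of each gene in RefSeq promoters of GRCh38.p14. It lay in 870 of 27305 promoters (3.19%), in 3 of the 22 tested members of the list that matched a promoter (13.6%: ASNS, ATF3 and CHAC1) and in 2 of 12 members called higher (16.7%). The matches on the gene's own strand are shown because both genes were called higher, although ATF3 was not called with any 1 of the 4 libraries left out. They lie in ASNS at chr7:97872437-97872506 on the minus strand and ATF3 at chr1:212565186-212565255 on the plus strand, and the core is in capitals.
ASNS: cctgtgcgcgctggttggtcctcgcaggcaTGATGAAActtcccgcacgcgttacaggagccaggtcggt
ATF3: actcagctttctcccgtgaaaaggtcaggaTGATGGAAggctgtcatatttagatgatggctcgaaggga
A match describes the letters in the window and is not evidence of binding. The list was assembled around ATF4 targets, so the share of its promoters with the core describes the list and not these libraries. The core starts 68 bases before the start of ASNS and 191 bases before that of ATF3.

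Aminoacyl-tRNA synthetases, which load transfer RNA and include further ATF4 targets, changed by small amounts. Of 20 tested, 7 were higher (35.0%, against 18.6% of all genes) and 1 lower (5.0%, against 13.9%), with a median of 0.086. The number higher was smaller without either siLAT1-2 library and smallest without the first siNC library. The single member lower was TARS, which lost its call without the first siNC library (limma adjusted p = 0.0717), and 2 members were lower without the second. HARS, for histidine, rose from 12.67 and 13.5 to 17.26 and 18.23 FPKM (log2 0.41), and KARS, for lysine, from 106.31 and 102.82 to 128.55 and 129.57 FPKM (log2 0.30). LARS, for leucine, stood at 44.97 and 46.29 against 50.35 and 51.15 FPKM (log2 0.15), a call lost without the first siNC library (limma adjusted p = 0.0615). MARS, for methionine, was not called (39.11 and 38.64 against 40.04 and 40.13 FPKM).

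Among 15 tested amino acid carriers outside system L, 3 were higher (20.0%, near the 18.6% of all genes) and 4 lower (26.7%, against 13.9%). SLC7A11, the cystine carrier xCT that shares the SLC3A2 heavy chain, fell from 17.26 and 17.56 to 9.53 and 9.71 FPKM (log2 -0.79 ± 0.0543, limma adjusted p = 0.000106). SLC7A1, the carrier of arginine and lysine, rose from 24.87 and 24.83 to 32.2 and 31.76 FPKM (log2 0.35). The glutamine carrier SLC38A2 fell from 70.52 and 67.55 to 57.64 and 57.35 FPKM (log2 -0.26), whereas SLC36A1, a lysosomal and plasma membrane carrier of small amino acids, fell from 7.42 and 7.35 to 5.31 and 4.97 FPKM (log2 -0.45). Thus the largest change in this list was a fall, in a partner of the same heavy chain.

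For mTORC1 and its amino acid sensors, 6 of 35 tested genes were higher (17.1%) and 3 lower (8.57%), shares near or below those of all genes. The number lower was 1 without the first siLAT1-2 library and 1 without the first siNC library. The catalytic subunit gene MTOR stood at 16.18 and 17.32 FPKM in siNC and 17.39 and 17.28 FPKM in siLAT1-2 (log2 0.05, 95% interval -0.05 to 0.15, limma adjusted p = 0.421). AKT1S1, which encodes the inhibitory subunit PRAS40, rose from 20.96 and 20.85 to 28.66 and 28.63 FPKM (log2 0.44). NPRL3, of the GATOR1 brake, rose from 6.45 and 6.23 to 9.41 and 8.46 FPKM (log2 0.44), and TSC1, of the complex that restrains the activator RHEB, fell from 5.64 and 6.15 to 4.14 and 4.11 FPKM (log2 -0.43).

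The methionine cycle, which makes and recycles S-adenosylmethionine, showed several small changes. Of 17 tested members 8 were higher (47.1%, against 18.6% of all genes) and 2 lower (11.8%, against 13.9%), with a median of 0.117. However, the number higher was smaller with any of the 4 libraries left out, and smallest without either siNC library. With quantile normalization it was 5. No member was lower without the first siLAT1-2 library or without either siNC library. MAT2A, which encodes the synthetase of S-adenosylmethionine, was called lower at 66.29 and 67.5 FPKM in siNC and 59.14 and 62.87 FPKM in siLAT1-2 (log2 -0.13, limma adjusted p = 0.0304), a call lost without the first siLAT1-2 library (limma adjusted p = 0.128), the first siNC library (0.0918) or the second (0.143). Its regulatory subunit gene MAT2B rose from 17.7 and 16.29 to 21.52 and 22.06 FPKM (log2 0.34). ADI1, of the methionine salvage pathway, rose from 32.76 and 33.82 to 38.29 and 38.97 FPKM (log2 0.21). AHCY, the hydrolase that removes S-adenosylhomocysteine, was at 135.88 and 135.39 against 137.99 and 135.42 FPKM (log2 0.01, limma adjusted p = 0.789). The calls of NNMT (log2 0.42), CBS (0.30), MTR (0.22), AHCYL2 (0.21), ENOPH1 (0.14) and MTAP (-0.23, lower) were all lost without the first siNC library (limma adjusted p = 0.0541 to 0.123) and without the second (0.0549 to 0.193). Not called were METTL16, MTRR, AHCYL1, MRI1 and APIP (log2 -0.08 to 0.12).

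EZH2, the other gene silenced in the series, kept its transcript level within the spread of replicates. It stood at 17.67 and 18.04 FPKM in siNC and 16.75 and 18.38 FPKM in siLAT1-2 (log2 -0.02, 95% interval -0.15 to 0.10, limma adjusted p = 0.771). Its partners in Polycomb repressive complex 2 (PRC2) were not called either: SUZ12 at 22.93 and 22.28 against 22.71 and 21.8 FPKM, EED at 10.68 and 10.24 against 10.47 and 10.74 FPKM. Of the 12 PRC2 genes tested 4 were higher (33.3%, against 18.6% of all genes) and none was lower (against 13.9%). JARID2, an accessory subunit that helps recruit the complex, rose from 7.95 and 7.21 to 11.4 and 10.57 FPKM (log2 0.48 ± 0.0599, limma adjusted p = 0.00137). AEBP2, also of the JARID2-containing form, rose from 11.42 and 11.37 to 14.5 and 13.73 FPKM (log2 0.29), and PHF19, of the Polycomb-like form, from 8.77 and 8.48 to 10.61 and 10.33 FPKM (log2 0.25). C17orf96 (log2 0.26) lost its call without either siLAT1-2 library (limma adjusted p = 0.106 and 0.0641) and without the first siNC library (0.116). PHF1 (log2 0.24), EZH1 (0.14), MTF2 (0.13), RBBP4 (-0.06) and RBBP7 (-0.02) were not called.

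Among PRC1 genes, 7 of 20 were higher (35.0%, against 18.6% of all genes) and 1 lower (5.0%, against 13.9%). The number higher was smaller with any of the 4 libraries left out, and smallest without either siNC library. KDM2B, which brings a variant PRC1 to CpG islands, rose from 1.26 and 1.31 to 3.13 and 2.8 FPKM (log2 0.79), and PCGF6, of another variant PRC1, from 6.62 and 7.56 to 10.4 and 10.97 FPKM (log2 0.53). Of 33 tested developmental regulators known as Polycomb targets, 7 were higher (21.2%, near the 18.6% of all genes). In the same list 3 were lower (9.09%, against 13.9%), and the median was -0.017. The number higher was smaller without either siNC library. HOXA9 moved most, from 6.17 and 5.71 to 11.6 and 13.19 FPKM (log2 0.95 ± 0.0692, limma adjusted p = 0.000135). HOXC13 fell from 8.47 and 8.38 to 5.66 and 5.6 FPKM (log2 -0.51), and PITX1 rose from 7.52 and 8.58 to 11.73 and 11.37 FPKM (log2 0.47). Of 40 histone and DNA methylation enzymes tested, 9 were higher (22.5%, near the 18.6% of all genes) and 10.0% were lower (against 13.9%). Those higher included the demethylase KDM2A (10.66 and 11.1 to 19.43 and 19.34 FPKM, log2 0.78), the H3K79 methyltransferase DOT1L (log2 0.63) and the H3K27 demethylase KDM6B (0.58). In that list 4 were lower, a number that was 1 without the first siLAT1-2 library, 2 without the second, 0 without the first siNC library and 1 without the second.

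Inflammatory mediators of the NF-kB pathway were higher or not called. NF-kB factors, built from subunits such as RELA, RELB and the NFKB1 and NFKB2 products, are held back by inhibitors such as the NFKBIA product and drive chemokine genes that attract neutrophils. Of 26 members tested 14 were higher (53.8%, against 18.6% of all genes) and none lower (against 13.9%), with a median of 0.229. The number higher was slightly smaller with any of the 4 libraries left out. With quantile normalization 13 were higher and 2 lower. CXCL1 is described above. CXCL2 rose from 2.52 and 1.63 to 6.9 and 5.98 FPKM (log2 1.29 ± 0.136, limma adjusted p = 0.000696). IL8, the chemokine now named CXCL8, rose from 38.94 and 35.13 to 70.74 and 71.66 FPKM (log2 0.93 ± 0.0511, limma adjusted p = 4.85e-05). PTGS2, the inducible cyclooxygenase, rose from 3.93 and 3.16 to 7.56 and 7.49 FPKM (log2 0.91). In these 4 genes both siLAT1-2 libraries lay above both siNC libraries by more than the distance between replicates.

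Weaker rises in the list reached the pathway's own components. CCL20, a chemokine for lymphocytes and dendritic cells, rose from 8.41 and 8.06 to 13.71 and 12.51 FPKM (log2 0.61). RELB rose from 9.96 and 10.65 to 15.56 and 15.14 FPKM (log2 0.53), NFKB1 from 17.93 and 18.6 to 22.2 and 22.0 FPKM (log2 0.26) and the inhibitor gene NFKBIA from 47.13 and 44.52 to 54.06 and 54.69 FPKM (log2 0.24). RELA, the main activating subunit, was not called (20.71 and 20.0 against 18.79 and 19.64 FPKM, limma adjusted p = 0.186), nor was the cytokine gene IL6 (1.62 and 1.67 against 1.4 and 1.38 FPKM, limma adjusted p = 0.309). CXCL3 was low, at 0.78 and 0.74 FPKM in siNC and 1.59 and 1.93 FPKM in siLAT1-2 (log2 0.65, limma adjusted p = 0.0117), and lost its call without the second siLAT1-2 library (limma adjusted p = 0.0687), the first siNC library (0.0553) or the second (0.063). The CXCL1, CXCL2 and CXCL3 genes are close copies, and reads may be divided between them in ways the sources used here do not give.

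The promoters of 4 chemokine genes called higher are printed because they carry the same letters. CXCL3 is the least certain of them: it lay below 1 FPKM in both siNC libraries, so that it was tested only through its higher level in other libraries, and its call was lost with any of the 3 libraries named above left out. The site GGAATTTCC, a form of the NF-kB element chosen after the values were seen, was searched on both strands in the 250 bases before the start. It lay in 117 of 27305 RefSeq promoters of GRCh38.p14 (0.43%), in 9 of the 22 tested members of the list that matched a promoter (40.9%) and in 6 of 12 called higher (50%), among them NFKB1 and NFKBIA. The stretches of 70 bases below have the site in capitals and lie at chr4:73869285-73869354 (CXCL1, plus strand), chr4:74099233-74099302 (CXCL2, minus strand), chr4:74038728-74038797 (CXCL3, minus strand) and chr4:73740448-73740517 (CXCL8, plus strand).
CXCL1: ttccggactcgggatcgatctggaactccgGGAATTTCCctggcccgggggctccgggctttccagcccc
CXCL2: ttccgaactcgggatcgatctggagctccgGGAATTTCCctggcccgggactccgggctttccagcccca
CXCL3: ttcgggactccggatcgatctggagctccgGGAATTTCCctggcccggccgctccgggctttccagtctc
CXCL8: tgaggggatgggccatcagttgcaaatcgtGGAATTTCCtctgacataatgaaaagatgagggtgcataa
The site starts 78, 77, 78 and 91 bases before the start of CXCL1, CXCL2, CXCL3 and CXCL8. REL, NFKBIZ and ICAM1, which were not called, also hold it. The list was assembled around this pathway, so the share of its promoters with the site describes the list and not these libraries.

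NRF2 genes moved the other way. NRF2, the product of NFE2L2, is the transcription factor of antioxidant and glutathione genes, often active in esophageal squamous carcinoma. Of 27 members tested 18 were lower (66.7%, against 13.9% of all genes) and 3 higher, with a median of -0.209, and the number lower stayed between 14 and 17 with any of the 4 libraries left out. TXNRD1, thioredoxin reductase, fell from 188.65 and 190.49 to 115.74 and 114.4 FPKM (log2 -0.72 ± 0.0243, limma adjusted p = 1.29e-05). AKR1B10, an aldo-keto reductase, fell from 154.89 and 147.75 to 99.23 and 98.97 FPKM (log2 -0.61), and the exporter ABCC3 from 5.21 and 5.11 to 3.16 and 3.14 FPKM (log2 -0.57). The quinone reductase NQO1 fell from 185.38 and 184.29 to 149.05 and 148.66 FPKM (log2 -0.31), and its replicates lay close together in both groups.

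Not every member fell. ME1, the cytosolic malic enzyme that makes NADPH, rose from 43.11 and 44.55 to 67.17 and 65.32 FPKM (log2 0.59 ± 0.0304, limma adjusted p = 3.99e-05). GCLM, the modifier subunit of the enzyme that starts glutathione synthesis, rose from 33.87 and 33.89 to 41.54 and 44.07 FPKM (log2 0.33), whereas GCLC, its catalytic subunit, fell from 28.67 and 27.65 to 24.33 and 24.46 FPKM (log2 -0.20). NFE2L2 itself was slightly lower, at 35.12 and 34.44 against 30.8 and 31.79 FPKM (log2 -0.15, limma adjusted p = 0.0122), a call lost without the first siLAT1-2 library (limma adjusted p = 0.0657) or the first siNC library (0.0767). KEAP1, the repressor of NRF2 protein, and HMOX1, a haem oxygenase under its control, were not called (limma adjusted p = 0.199 and 0.12). The AKR1C members are near-identical copies and their values are uncertain.

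**Figure D5:**
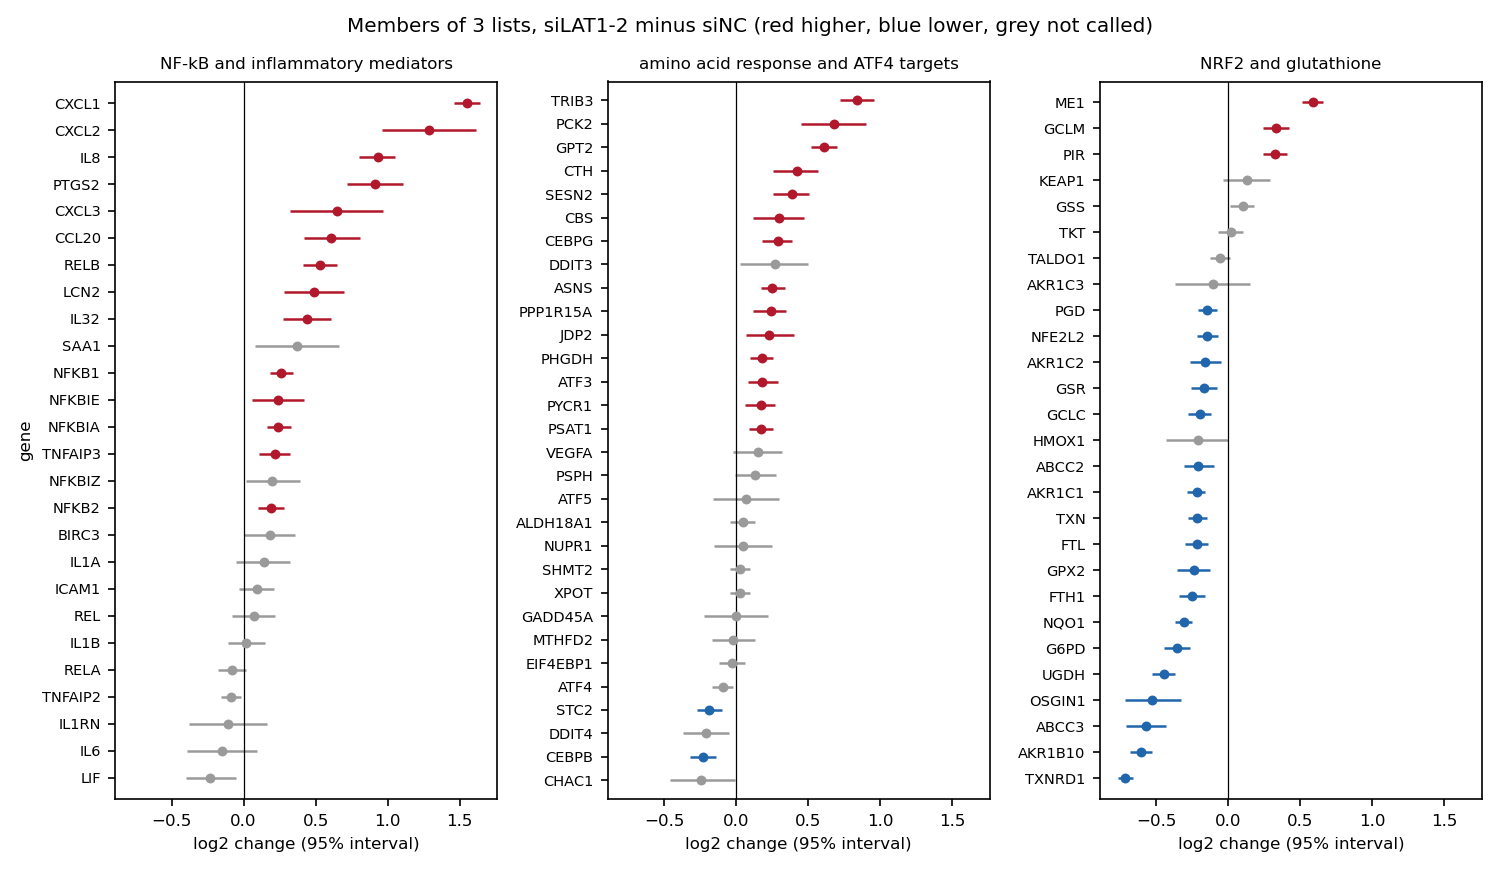
Log2 change of siLAT1-2 minus siNC with its 95% interval (x axes) for every tested member (y axes) of the NF-kB, amino acid response and NRF2 lists. Red members were called higher, blue lower and grey not called. CXCL1 (1.55) is the highest point of the NF-kB panel, TRIB3 (0.84) of the amino acid panel, and TXNRD1 (-0.72) is the lowest of the NRF2 panel.

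Genes of glycolysis and the hypoxia response were mostly lower or not called. Of 34 tested 16 were lower (47.1%, against 13.9% of all genes) and 1 higher, with a median of -0.144. Quantile normalization left 12 lower, with a median of -0.079. The number lower was smaller with any of the 4 libraries left out, and smallest without the second siLAT1-2 or the first siNC library. EGLN3, the prolyl hydroxylase PHD3 that marks HIF for decay and is itself induced by it, fell from 14.48 and 12.62 to 5.91 and 5.28 FPKM (log2 -1.14 ± 0.111, limma adjusted p = 0.00049). HIF1A fell from 130.17 and 133.65 to 99.17 and 103.97 FPKM (log2 -0.37), and the glucose carrier SLC2A1 from 98.23 and 90.29 to 69.88 and 66.25 FPKM (log2 -0.46). PFKL, the liver-type phosphofructokinase, was the exception and rose from 13.66 and 13.41 to 22.35 and 22.14 FPKM (log2 0.68). NDRG1 stood at 27.23 and 17.48 against 13.07 and 11.54 FPKM (log2 -0.78, limma adjusted p = 0.026), and its call was lost without either siLAT1-2 library (limma adjusted p = 0.0635 and 0.11) or without the first siNC library (0.0929).

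Basal squamous genes, the identity and adhesion genes of this epithelium, were lower more often than higher. Of 35 tested 18 were lower (51.4%, against 13.9% of all genes) and 6 higher (17.1%, against 18.6%), with a median of -0.152. Of the 11 squamous markers used to check the line 7 were lower. KRT6A, a keratin of activated keratinocytes, fell from 28.62 and 29.26 to 16.86 and 17.09 FPKM (log2 -0.74 ± 0.0373, limma adjusted p = 3.76e-05), although the KRT6 genes are near-identical and their values are uncertain. The basal keratin KRT14 fell from 27.0 and 26.72 to 17.16 and 14.88 FPKM (log2 -0.71), and KRT17 from 33.36 and 32.45 to 20.54 and 21.47 FPKM (log2 -0.62). KRT5, the most abundant of the markers, fell from 507.93 and 502.39 to 437.35 and 425.22 FPKM (log2 -0.23), a call that quantile normalization ended (limma adjusted p = 0.447). TP63, the master regulator of this lineage, was not called (36.11 and 35.68 against 35.69 and 35.75 FPKM, log2 -0.01, limma adjusted p = 0.876).

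Against that direction, PERP, a p63-dependent desmosome protein, rose from 62.51 and 59.27 to 115.34 and 113.22 FPKM (log2 0.90 ± 0.0376), and SOX2, the lineage oncogene of squamous carcinoma, from 7.64 and 7.93 to 11.62 and 11.64 FPKM (log2 0.52). In bulk RNA, fewer cells of a type and less RNA per cell cannot be told apart. Of 34 terminal differentiation genes listed 17 were tested, of which 6 were lower (35.3%, against 13.9% of all genes), 1 was higher and 10 were not called. The number lower was smaller with any of the 4 libraries left out, and smallest without the second siNC library. TGM1, the transglutaminase of the cornified envelope, fell from 7.33 and 7.16 to 4.96 and 4.31 FPKM (log2 -0.55), and the envelope protein gene EVPL rose from 4.13 and 4.51 to 6.22 and 6.52 FPKM (log2 0.47).

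DNA replication genes were higher or not called, with 1 exception. Of 49 tested 24 were higher (49.0%, against 18.6% of all genes), 24 were not called and 1 was lower, with a median of 0.126, and the number higher was 15 without the second siLAT1-2 library. The 1 lower, TK1, was not called without that library or without either siNC library. ORC1, the large subunit of the origin recognition complex, rose from 25.4 and 24.29 to 36.6 and 37.25 FPKM (log2 0.55 ± 0.0416, limma adjusted p = 0.000151). MCM3, of the replicative helicase, rose from 113.89 and 115.34 to 145.36 and 141.49 FPKM (log2 0.32). PCNA, the sliding clamp, was higher by little (178.29 and 178.7 to 193.84 and 192.86 FPKM, log2 0.11) and lost its call without the first siLAT1-2 library (limma adjusted p = 0.0584) or either siNC library (0.0815 and 0.0759).

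Among 48 tested mitotic genes 9 were higher (18.8%, near the 18.6% of all genes) and 12 lower (25%, against 13.9%), and the number lower was 5 without the first siNC library and 7 without the second. TOP2A, topoisomerase II alpha, fell from 112.76 and 116.34 to 72.09 and 70.36 FPKM (log2 -0.68 ± 0.0294, limma adjusted p = 2.13e-05), and the spindle kinase AURKA from 55.81 and 55.65 to 42.54 and 41.03 FPKM (log2 -0.41). ZWINT, a kinetochore partner of ZW10, rose from 33.3 and 36.18 to 44.02 and 43.4 FPKM (log2 0.32). At the entry to S phase 6 of 23 tested genes were higher (26.1%, against 18.6% of all genes) and 6 lower (26.1%, against 13.9%). CCND1, cyclin D1, fell from 242.94 and 254.74 to 169.43 and 180.74 FPKM (log2 -0.51 ± 0.0406, limma adjusted p = 0.000199), while its kinase partner CDK6 rose from 13.83 and 14.85 to 27.4 and 29.07 FPKM (log2 0.93) and E2F1 from 18.04 and 17.47 to 24.22 and 24.36 FPKM (log2 0.43). MYC stood slightly higher, at 58.05 and 57.53 against 64.79 and 67.53 FPKM (log2 0.19).

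CDKN1A, which encodes the cell cycle inhibitor p21, fell from 25.18 and 24.15 to 12.36 and 10.83 FPKM (log2 -1.03 ± 0.0608, limma adjusted p = 6.08e-05). With MDM2 (10.16 and 9.69 to 3.02 and 3.09 FPKM) and PLK2 (32.1 and 32.6 to 19.12 and 20.94 FPKM, log2 -0.67) it headed the p53-responsive genes. Of 25 tested 10 were lower (40.0%, against 13.9% of all genes) and 2 higher (8.0%, against 18.6%). The number lower was 6 without the first siLAT1-2 library, 5 without the second, 6 without the first siNC library and 5 without the second. BTG2, an antiproliferative member of the same family as TOB1, rose from 9.69 and 9.48 to 13.74 and 13.78 FPKM (log2 0.48).

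Growth factor pathways held both directions. EGFR fell from 41.6 and 42.23 to 31.65 and 31.65 FPKM (log2 -0.39 ± 0.0285, limma adjusted p = 0.00013), with DUSP6 (log2 -0.57) and DUSP4 (-0.33), phosphatases that ERK induces and that switch it off. In that list 7 of 23 tested genes were lower (30.4%, against 13.9% of all genes) and 1 higher (4.35%, against 18.6%). The number lower was smaller with any of the 4 libraries left out, and smallest without the second siNC library. In the TGF-beta list 4 of 31 tested genes were higher (12.9%, against 18.6% of all genes) and 8 lower (25.8%, against 13.9%). The secreted target TGFBI fell from 101.95 and 103.77 to 63.64 and 63.89 FPKM (log2 -0.68). The activin subunit INHBA rose from 1.48 and 1.17 to 3.24 and 3.72 FPKM (log2 0.95). In the YAP and TAZ list 8 of 25 tested genes were higher (32%, against 18.6% of all genes) and 4 lower (16.0%, near the 13.9% of all genes). STK4, the Hippo kinase MST1, fell from 19.1 and 19.6 to 10.93 and 11.4 FPKM (log2 -0.74), and the target CYR61 rose from 28.76 and 31.48 to 39.06 and 41.63 FPKM (log2 0.41). The number higher in the last list was 4 without the second siLAT1-2 library, 4 without the first siNC library and 5 without the second.

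Actin and membrane scaffold genes included several of the clearest single changes. This list, like the others, was chosen with earlier results of these data known, so its shares are a description only. VCL, vinculin of focal adhesions, fell from 62.19 and 62.82 to 27.97 and 27.4 FPKM (log2 -1.15 ± 0.0292, limma adjusted p = 3.53e-06). CAV2 fell from 21.6 and 20.76 to 9.11 and 9.2 FPKM (log2 -1.13) and CAV1 from 241.9 and 251.73 to 170.35 and 170.4 FPKM (log2 -0.53), the genes of both caveolins that build caveolae in epithelia. MYH9, non-muscle myosin heavy chain IIA, rose from 130.16 and 131.13 to 172.81 and 173.24 FPKM (log2 0.40), as did TPM4. Of 15 tested 4 were higher (26.7%, against 18.6% of all genes) and 5 lower (33.3%, against 13.9%). The number higher was smaller without the second siLAT1-2 library or either siNC library.

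The list of sterol and fatty acid synthesis was divided. Of 33 tested genes 8 were higher (24.2%, against 18.6% of all genes) and 8 lower (24.2%, against 13.9%). HMGCS1, an early enzyme of cholesterol synthesis, fell from 74.12 and 75.12 to 53.02 and 51.5 FPKM (log2 -0.51 ± 0.0465, limma adjusted p = 0.000373). INSIG1, which retains the SREBP activators in the endoplasmic reticulum, rose from 19.34 and 18.53 to 28.47 and 27.66 FPKM (log2 0.54). The number higher was 4 without the first siLAT1-2 library and 5 without either siNC library, and the number lower was 5 without the second siLAT1-2 library and 5 without the first siNC library.

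Of 36 tested autophagy and lysosome genes 7 were higher (19.4%, near the 18.6% of all genes) and 7 lower (19.4%, against 13.9%). The median was 0.006. LAMP1, a lysosomal membrane protein, fell from 40.21 and 38.95 to 24.83 and 25.75 FPKM (log2 -0.63), and ATG14, a subunit of the lipid kinase complex that starts autophagosomes, rose from 5.15 and 5.29 to 7.26 and 7.11 FPKM (log2 0.40). The number higher was 4 without the first siLAT1-2 library and 3 without either siNC library, and the number lower was 4 without the second siLAT1-2 library, 3 without the first siNC library and 4 without the second.

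The small RNA silencing machinery, only part of which carries siRNAs, held several changes beside that of TNRC6A. Of 12 tested 4 were higher (33.3%, against 18.6% of all genes) and 2 lower (16.7%, against 13.9%). The number higher was smallest without the second siNC library, and the number lower was smaller without the first siLAT1-2 library or either siNC library. DROSHA, the nuclear nuclease of microRNA processing, rose from 15.84 and 15.74 to 27.53 and 25.94 FPKM (log2 0.72 ± 0.0378, limma adjusted p = 3.99e-05), and AGO1 rose from 8.91 and 9.6 to 11.72 and 11.62 FPKM (log2 0.31). AGO2, the slicing Argonaute (log2 0.08, limma adjusted p = 0.224), and DICER1 (19.95 and 19.97 against 17.67 and 19.1 FPKM, limma adjusted p = 0.121) were not called.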

How the data were processed

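Total RNA of KYSE510 cells was sequenced by the submitters and deposited as a table of values per gene, taken here as FPKM. Per the submitters' processing notes, the series used Trim Galore, STAR, Bowtie, Bowtie2, Picard and SEACR with hg19 and hg38. Which of these made the table, the counting program, its strand setting and the gene annotation are not given in the sources used here. Without a strand setting, reads of overlapping and antisense genes cannot be told apart. The table names no unit. The authors' values were taken as FPKM. Low values of short genes step in whole reads scaled by length (80.0% to 84.5% of values within 0.12 of a whole number, where a depth not fitted to them would give 24%). Such steps show scaling by length but would arise in other length-scaled units too, so that FPKM is an assumption. The depths are estimates from the same steps and rest on that assumption. No count test was run.

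Genes averaging 1 FPKM or more in the 6 libraries were tested on log2(FPKM + 1) with limma 3.58.1 (R 4.3.3), with a mean-variance trend, 1 coefficient per group and all 6 libraries sharing the spread. P-values are two-sided with Benjamini-Hochberg adjustment over the 11678 genes, and the threshold was 0.05. Fold changes are on the log2(FPKM + 1) scale, and percent of siNC is on FPKM. The procedure was tested on simulated data. Alternatives were quantile normalization, other pseudocounts and filters, the 4 libraries alone, a replicate block, no trend, and leaving out each library.

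Members, lists and named genes were chosen with earlier results of these data known. The naming rule took SLC7A5 and SLC3A2, the 15 highest and 15 lowest changes among called genes whose log2 values averaged 2 or more and whose groups do not overlap, up to 5 called members per list, all members of the system L, amino acid response, methionine and PRC2 lists, and a gene at the head of a pathway where not called. KRT5, NFE2L2, NQO1, HIF1A, MYC, MCM3, PCNA, NFKB1, NFKBIA, BTG2, CCL20, GCLC, GCLM, RELB, AGO2, DICER1, KEAP1, HMOX1, MARS, TARS and TK1 were named after their values were seen. Promoter sequences are RefSeq's for GRCh38.p14.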

Additional observations from a re-analysis of the deposited data

How the results depend on the processing

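SLC7A5, SLC3A2 and the other 14 largest falls kept their direction and call under each of the 11 alternatives in which they were tested. The count of 3796 called genes was 3724 with quantile normalization, 3783 with a pseudocount of 0.1, 2543 with no filter (28719 tested), 3311 with a filter at 5 FPKM, 3747 with only the 4 libraries compared and 3405 without the mean-variance trend. It ranged from 2364 to 2782 with 1 library left out. Leaving out a library leaves that group with 1 library, assumed to vary like the other groups. The count at 1 or more on the log2 scale, 99, was 181 with the pseudocount of 0.1, which expands low genes. MT-ND4 reversed under quantile normalization (log2 0.111, limma adjusted p = 0.717). Of 233 named called genes 173 kept call and direction under all alternatives in which they were tested. With a replicate block 3553 genes were called. The replicate numbers come from the sample descriptions, since the titles number both siNC libraries 1. Same-numbered libraries deviated together hardly at all (r = 0.0334 between siNC and siLAT1-2). That correlation cannot tell whether they share a culture, day or plate. With 2 libraries a side, small changes of low genes are the least certain.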

Other observations

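Zinc finger genes stood higher as a family, a pattern picked out after the values were seen. Of 555 symbols beginning with ZNF 290 were tested: 108 were called higher with siLAT1-2 (37.2%, against 18.6% of all genes) and 5 lower (1.72%, against 13.9%), with a median log2 change of 0.176 against 0.016 over all genes. The number higher was 78 to 84 with any of the 4 libraries left out, and the number lower was 2 without the second siNC library and 3 without the second siLAT1-2 or the first siNC library. With quantile normalization 103 were higher and 8 lower. Most of these genes encode KRAB repressors of repetitive DNA, and 13 of those called rose by at least 1 on the log2 scale. ZNF721 rose from 1.14 and 1.21 to 4.48 and 4.58 FPKM and ZNF765 from 2.07 and 2.1 to 6.76 and 6.27 FPKM, while ZNF644 fell from 15.08 and 14.28 to 11.19 and 11.19 FPKM. Low levels are common in this family, and reads of its close copies may be divided in ways the sources used here do not give. The filter averaged all 6 libraries, so low genes could be tested only through higher levels with the LAT1 siRNAs. That by itself tilts the shares toward genes called higher, and its size was not tested.

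Of 28 tested interferon-stimulated genes 4 were higher (14.3%, against 18.6% of all genes) and 8 lower (28.6%, against 13.9%). The number higher was smallest without the second siNC library. The antiviral RNA-binding genes IFIT2 (7.45 and 7.23 to 3.33 and 3.43 FPKM, log2 -0.93) and IFIT1 (4.02 and 3.98 to 2.29 and 2.44 FPKM, log2 -0.57) fell, and so did OASL (5.55 and 4.93 to 2.2 and 2.39 FPKM, log2 -0.92). USP18, which removes ISG15 from proteins, rose from 6.54 and 7.11 to 9.82 and 9.61 FPKM. Of 24 tested genes of endoplasmic reticulum chaperones and the unfolded protein response 5 were higher (20.8%) and 3 lower (12.5%), shares near those of all genes, and the number higher was 3 without the first siLAT1-2 or the second siNC library. DERL2, of the export of misfolded proteins, fell from 8.75 and 10.04 to 5.48 and 5.27 FPKM, whereas the chaperone CALR rose from 205.77 and 208.7 to 253.96 and 247.0 FPKM. HSPA5, the chaperone BiP, was not called (270.43 and 274.61 against 260.81 and 261.09 FPKM, limma adjusted p = 0.103). Of 22 tested genes of the COPII coat and its cargo receptors 4 were higher (18.2%) and 3 lower (13.6%), shares near those of all genes, with a median of 0.042. The number higher was smallest without the second library of either group. SEC23A (10.23 and 10.41 to 6.54 and 6.89 FPKM) and SEC16A (21.02 and 21.18 to 14.95 and 14.78 FPKM) fell, and SEC13 rose from 11.46 and 12.27 to 14.63 and 14.1 FPKM. Of 14 tested histone genes, which have close copies, 2 were higher (14.3%) and 1 lower (7.14%), shares below those of all genes. The number lower was larger without the first siLAT1-2 library. HIST1H2BK fell from 258.93 and 264.35 to 144.93 and 131.36 FPKM, and HIST1H2BD rose from 2.41 and 2.15 to 3.53 and 3.5 FPKM.

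The 13 tested protein-coding genes of the mitochondrial genome had a median of -0.40, and 7 were called lower (53.8%, against 13.9% of all genes). That count was 3 without the first siLAT1-2 library, 13 without the second, and 0 without either siNC library, and quantile normalization left none. MT-CYB stood at 879.77 and 923.43 FPKM in siNC and at 550.64 and 746.99 FPKM in siLAT1-2, so that the 2 siLAT1-2 libraries lay farther apart than the siNC libraries. Of 76 cytosolic ribosomal protein genes 32 were lower (42.1%, against 13.9% of all genes) and 2 higher (2.63%, against 18.6%), with a median of -0.098. Quantile normalization left 12 lower and 4 higher, with a median of -0.053. The number lower was 12 without the first siLAT1-2 library, 7 without the first siNC library and 4 without the second, and the number higher was 0 without the second siLAT1-2 or the first siNC library and 1 without the second siNC library. The largest of these falls was RPL37A, from 84.08 and 83.86 to 63.94 and 64.67 FPKM (log2 -0.38), although pseudogene copies make ribosomal protein values uncertain. Mitochondrial ribosomal protein genes and nuclear genes of the respiratory chain were both gathered after the values were seen. Of the former 14 of 72 were higher (19.4%) and 6 lower (8.33%), with a median of 0.005. Of the latter 8 of 69 were higher (11.6%) and 11 lower (15.9%), with a median of -0.059. Both medians were near that of all genes (0.016), of which 18.6% were higher and 13.9% lower. With quantile normalization 9 of the former were higher and 9 lower. Without the second siNC library 7 and 2 of the former were higher and lower, and the number lower in the latter was 5 without the first siNC library and 6 without the second. Beside SDHC, its partner anchor gene SDHD fell from 41.62 and 41.03 to 21.33 and 22.99 FPKM (log2 -0.87).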
